A study of Mus musculus with 5 samples.

Results

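The genes described here are 36 genes of collagen chains and of the enzymes that hydroxylate and crosslink collagen, measured in whole mouse colon. They were chosen as a list by name, with earlier results of these data known, and each was represented by its brightest probe on the array. The list holds 7 fibrillar collagen genes, 8 basement membrane collagen genes, 12 other collagen genes and 9 enzyme genes. All 36 were among the 22911 gene symbols on the array, with 53 probes in all. Of these genes, 35 were bright enough to be tested, among 32917 features tested over the whole array. The exception was Col4a4, a basement membrane collagen chain, which was not well above background on any of the 5 arrays.

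The study injected an IL-11R agonist named NT-3N, a modified form of human IL-11, into a vein of mice and removed the colon 3 hr later. The 3 mice of the NT-3N group were compared with 2 mice of the Control group, with 1 mouse on each array. All 5 mice were of the strain given in the labels as C57BL/B6, and the study describes the injected animals as wild type. The labels gave no vehicle injection for the Control mice and no age, so that the injection and the agonist cannot be told apart. The samples were whole colon, in which fewer cells of a type and less RNA per cell cannot be told apart.

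Collagens are built from chains that wind around each other into a triple helix. Fibrillar collagens such as types I, III and V form the ropes of connective tissue, whereas type IV forms the sheet-like network of the basement membrane under epithelium and around vessels and muscle cells. Before a helix can form, prolyl 4-hydroxylases modify proline residues of the chains in the endoplasmic reticulum, which makes the helix stable at body temperature. Lysyl hydroxylases modify lysine residues at the same stage, and secreted lysyl oxidases then act on lysine and hydroxylysine to crosslink the assembled fibrils. In the colon, many of these genes are expressed mainly by fibroblasts, smooth muscle cells and pericytes. IL-11 acts on cells that carry its receptor together with gp130, and mainly activates the transcription factor STAT3.

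Levels are given as log2 of the quantile-normalized signal of 1 probe, on which a difference of 1 is a 2-fold change. Since brightness depends on the probe, levels were compared between arrays and not between genes. Serpina3n and Socs3, known targets of STAT3, served as the check of the treatment. Serpina3n was higher in NT-3N by 3.33 (limma adjusted p = 0.0027), and Socs3, a feedback inhibitor of cytokine signalling, by 2.71 (limma adjusted p = 0.0087). Epithelial, smooth muscle and fibroblast markers were above background on all 5 arrays, as the label of colon tissue requires. Markers of fat cells varied from array to array within both groups, with a summed linear signal of 11770 and 1323 in Control and of 7251, 3107 and 416 in NT-3N. Markers of B cells also differed between the Control arrays, with a summed signal of 3737 and 899, against 3572 to 4154 in NT-3N.

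None of the 35 tested genes passed an adjusted p under 0.05 in limma, in either direction. Across the whole array, 0.125% of features passed this threshold as higher in NT-3N and 0.0182% as lower. At an unadjusted p under 0.05 in limma, 1 member was higher, namely Col13a1, against 4.95% of all features. In the other direction 5 members were lower at this threshold, which is 14.3% of those tested, against 4.67% of all features. These were P4ha2, Plod2, P4ha1, Col11a1 and Col5a3. The arrays of the groups did not overlap for 1 member that was higher, against 13.5% of all features. In the lower direction they did not overlap for 6 of the 35 tested members, a share near the 14.8% of all features. The 6 were the same 5 genes and Plod1. Of all 35 genes, 12 had a higher and 23 a lower mean in NT-3N, with a median difference of -0.10, whereas 46.4% of all features had a higher mean and their median difference was -0.02. The plot of differences shows how the 4 groups of genes were placed.

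**Figure D1:**
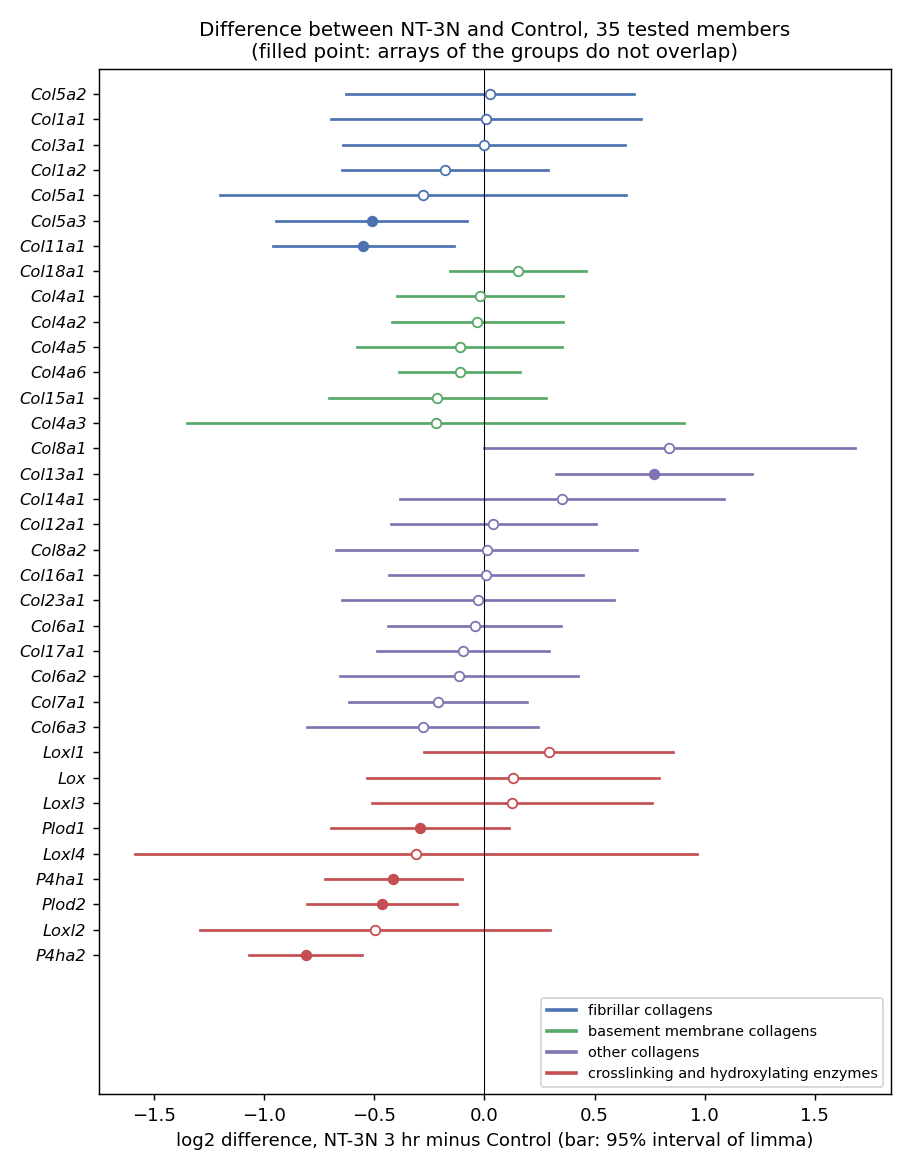
Log2 difference between NT-3N and Control on the horizontal axis for each of the 35 tested genes, coloured by group, with the 95% interval of limma as a bar. Filled points mark the 7 genes whose Control and NT-3N arrays do not overlap; P4ha2 at -0.81 is the lowest and Col8a1 at 0.84 the highest.

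The enzymes had a median difference of -0.31, below those of the 3 collagen groups. This median is the value of Loxl4, a dim gene with a wide interval from -1.59 to 0.97. Other tested probes of Loxl4 differed by -0.04 and 0.30. When only probes well above background on all 5 arrays were kept, which left out Loxl4, the enzyme median was -0.35. With the mean of the probes of each gene in place of the brightest, the enzyme median was -0.13. This was above the -0.18 of the fibrillar collagens. The 9 enzyme genes fell into families that differed in how the arrays were placed. The 4 hydroxylase genes were lower on every NT-3N array than on both Control arrays, whereas the arrays of all 5 lysyl oxidase genes overlapped. The arrays did not overlap in the lower direction for 14.8% of all features. At an unadjusted p under 0.05, 3 of the 9 enzymes were lower, against 4.67% of all features, and none was higher. The difference between the families was not tested.

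P4ha2 encodes a catalytic alpha subunit of prolyl 4-hydroxylase. Its log2 signal was 10.26 on both Control arrays and 9.40, 9.38 and 9.57 on NT-3N arrays 1, 2 and 3. The spread within each group was small beside the gap between the groups, with a Control mean of 10.26 ± 0.0030 (SD, n = 2) and an NT-3N mean of 9.45 ± 0.10 (SD, n = 3). The groups differed by -0.81, with a standard error of 0.11 and a 95% interval from -1.07 to -0.55, so that the NT-3N level was 0.570 of the Control level. The limma adjusted p of 0.077 over all features did not pass the threshold, and it was the lowest among the members. P4ha2 kept an unadjusted p under 0.05 in all 17 alternative settings, with a difference between -0.87 and -0.73.

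P4ha1 encodes the other widely expressed alpha subunit of the same enzyme. Its log2 signal was 8.28 and 8.41 in Control and 7.80, 7.97 and 8.02 in NT-3N. All NT-3N arrays lay below both Control arrays, with a difference of -0.41 and a 95% interval from -0.72 to -0.10 (limma adjusted p = 0.40). A second, dimmer probe of P4ha1 went the other way by 0.16, with a limma adjusted p of 0.86, so the lower level rests on the brightest probe. With the mean of both probes, P4ha1 had a difference of -0.13.

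Plod2 and Plod1 encode lysyl hydroxylases. Plod2, which acts on the end regions of collagen chains where crosslinks form, had a log2 signal of 8.29 and 8.19 in Control and of 7.82, 7.91 and 7.60 in NT-3N. The NT-3N arrays were again all below the Control arrays, with a difference of -0.47 and a 95% interval from -0.81 to -0.13 (limma adjusted p = 0.39). Plod1, which acts on the helical part of the chains, read 8.46 and 8.68 in Control and 8.01, 8.39 and 8.43 in NT-3N. The groups did not overlap, but NT-3N array 3 was close to Control array 1, and the interval of the difference of -0.29 ran from -0.70 to 0.11.

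**Figure D2:**
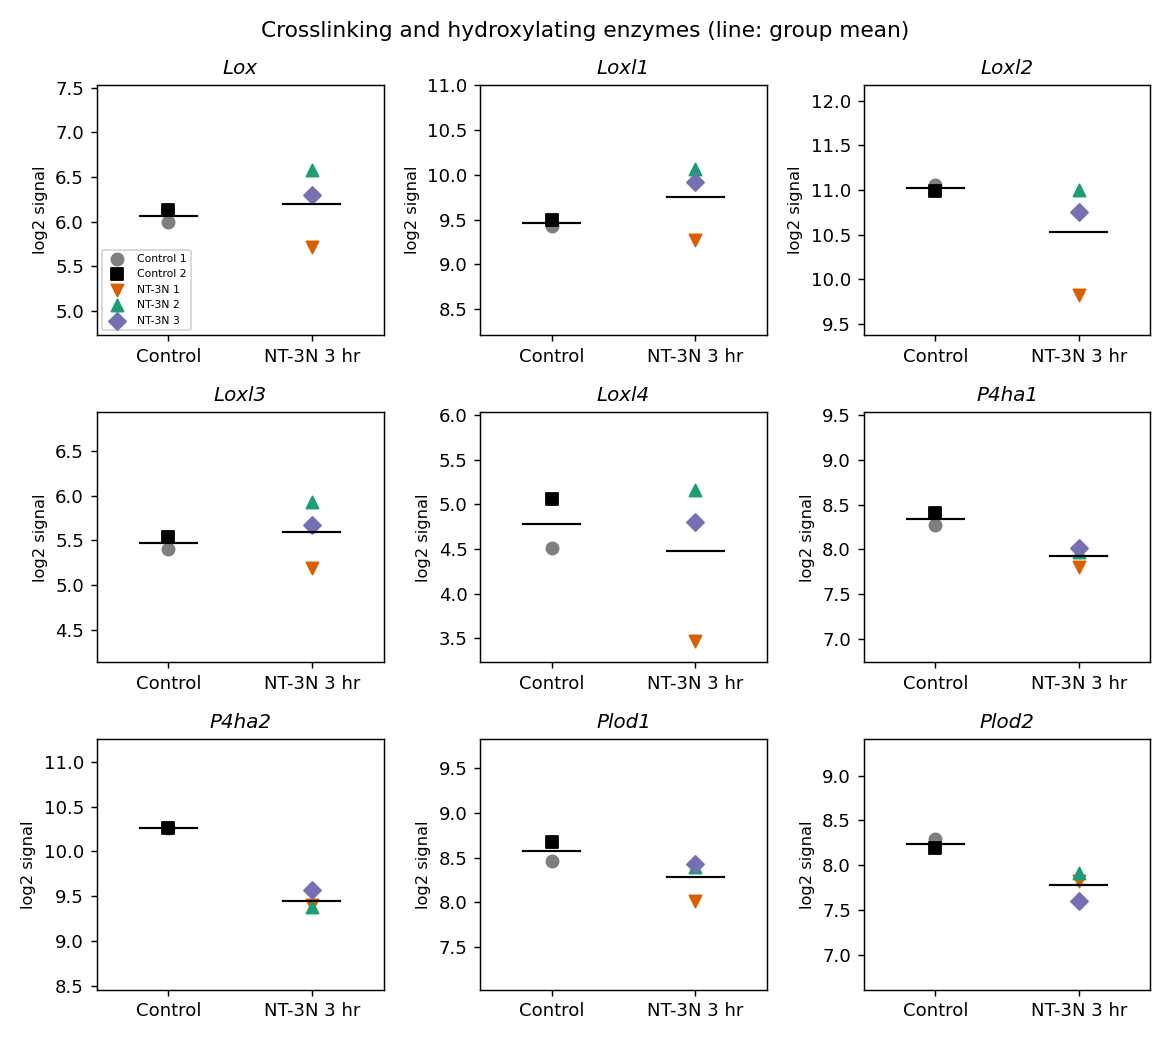
Log2 signal of the 9 enzyme genes on each array, with Control and NT-3N side by side, 1 symbol per array and a line at the mean of each group; all panels span the same range of log2 units. P4ha1, P4ha2, Plod1 and Plod2 show every NT-3N array below both Control arrays, whereas for the Lox family NT-3N array 1 lies lowest and NT-3N array 2 at or near the top.

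Lox, the founding lysyl oxidase, had a log2 signal of 6.002 and 6.128 in Control and of 5.71, 6.58 and 6.30 in NT-3N. NT-3N arrays 1 and 2 lay on either side of both Control arrays, and the difference of 0.13 had a 95% interval from -0.53 to 0.79. The other members of the family, Loxl1, Loxl2, Loxl3 and Loxl4, encode related oxidases. Loxl1, known for its part in elastic fibres, differed by 0.29 with an interval from -0.27 to 0.86, and Loxl3 by 0.12 with an interval from -0.51 to 0.76. Loxl2, which has a known part in type IV collagen networks, differed by -0.50 with an interval from -1.29 to 0.30. For Loxl2, NT-3N array 1 at 9.83 stood below the other 4 arrays, which lay between 10.75 and 11.06. Loxl4 differed by -0.31 with an interval from -1.59 to 0.97, and was well above background on 2 of the 3 NT-3N arrays. On the brightest probe of each gene, NT-3N array 1 was the lowest array for all 5 genes of the Lox family. Other, dimmer probes of Loxl4 differed by -0.04 and 0.30, and NT-3N array 1 was not the lowest array on either.

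The sequences before the starts of hydroxylase genes are shown because all 4 of these genes, the only enzymes with no overlap between the groups, were placed in the same direction. Some hydroxylase genes are known targets of the hypoxia-inducible factor, whose binding sites hold the core ACGTG or GCGTG, which differ in the first letter only. RefSeq sequence of the build GRCm38.p6 covered the start of 26 of the 36 members, with 28 windows of 250 bases before a start, and Plod2 had none. Each stretch below ends at or before the start of the annotated gene and reads along the strand of the gene, with either core in capitals, in the form CACGT or CACGC where it lies on the opposite strand. The stretch of P4ha2 lies at chr11:54100674-54100923, that of P4ha1 at chr10:59323046-59323196 and that of Plod1, on the minus strand, at chr4:147936777-147937026.
P4ha2: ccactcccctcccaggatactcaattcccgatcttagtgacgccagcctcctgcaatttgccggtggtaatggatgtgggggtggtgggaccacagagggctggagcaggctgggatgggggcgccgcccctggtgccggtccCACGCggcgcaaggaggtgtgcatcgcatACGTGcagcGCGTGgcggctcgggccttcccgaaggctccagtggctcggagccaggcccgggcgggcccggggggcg
P4ha1: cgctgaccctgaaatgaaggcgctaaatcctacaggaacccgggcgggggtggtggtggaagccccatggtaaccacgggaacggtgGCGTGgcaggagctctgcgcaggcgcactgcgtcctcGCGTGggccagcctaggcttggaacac
Plod1: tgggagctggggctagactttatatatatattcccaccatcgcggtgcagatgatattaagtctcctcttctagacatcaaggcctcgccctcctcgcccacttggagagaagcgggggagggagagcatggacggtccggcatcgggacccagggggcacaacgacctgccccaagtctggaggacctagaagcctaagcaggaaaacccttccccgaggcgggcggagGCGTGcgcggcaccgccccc

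The stretch of 250 bases of P4ha2 held 3 matches to the cores and that of Plod1 held 1. The stretch of P4ha1, shortened to the 151 bases outside the annotated gene, held 2. Its full window of 250 bases held 1 match to ACGTG and 2 to GCGTG, as that of P4ha2 did. Of the collagen genes whose groups did not overlap, Col5a3 had 2 matches to GCGTG in its window, Col13a1 had 1 and Col11a1 had none, with no match to ACGTG in any of them. Members whose groups overlapped also held cores, with 2 matches to ACGTG for Col1a2, 1 for Col5a1 and 1 to GCGTG for Loxl4. Others of these, such as Col3a1, held neither core. Either core was found on either strand in 38.6% of all 32851 windows of 250 bases, and in 13 of the 28 windows of members, so such a match is common. The STAT element TTCNNNGAA, in which N is any base, was found on either strand in 7.02% of all windows and in none of the 28 windows of members. A match describes these letters only, and binding was not measured.

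The fibrillar collagens had a median difference of -0.18, with 2 of the 7 genes higher and 5 lower. The genes of the abundant chains, Col1a1, Col1a2 and Col3a1, did not differ beyond the spread between the arrays. Col1a1, the main chain of type I collagen, read 12.37 and 12.18 in Control and 11.77, 12.85 and 12.23 in NT-3N, where array 1 was the lowest and array 2 the highest of all 5. Its difference was 0.01 with a 95% interval from -0.70 to 0.71.

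Col1a2, the second chain of type I collagen, had a log2 signal of 14.18 and 14.20 in Control and of 13.65, 14.36 and 14.03 in NT-3N. The Control arrays lay within the range of the NT-3N arrays, with a difference of -0.18 and an interval from -0.65 to 0.29. Col3a1, whose chains form the finer type III fibrils, read 14 and 13.67 in Control and 13.41, 14.34 and 13.75 in NT-3N. Here too NT-3N array 1 was lowest and NT-3N array 2 highest, and the difference was within 0.01 of 0, with an interval from -0.64 to 0.64.

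Col11a1 and Col5a3 were the fibrillar genes with an unadjusted p under 0.05. Col11a1, a minor fibril chain best known from cartilage, had a log2 signal of 6.23 and 6.21 in Control and of 5.79, 5.63 and 5.61 in NT-3N. It was lower on every NT-3N array, with a difference of -0.55 and a 95% interval from -0.96 to -0.14 (limma adjusted p = 0.40). Col5a3, a chain of type V collagen, which controls the width of fibrils, read 9.18 and 9.52 in Control and 8.63, 9.09 and 8.78 in NT-3N. NT-3N array 2 came close to Control array 1, and the difference was -0.51 with an interval from -0.94 to -0.08 (limma adjusted p = 0.46). Both genes had a second probe on the array, and each of these was well above background on only 1 array and was not tested. The other type V genes had wide intervals, from -1.20 to 0.64 around -0.28 for Col5a1 and from -0.63 to 0.68 around 0.03 for Col5a2.

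**Figure D3:**
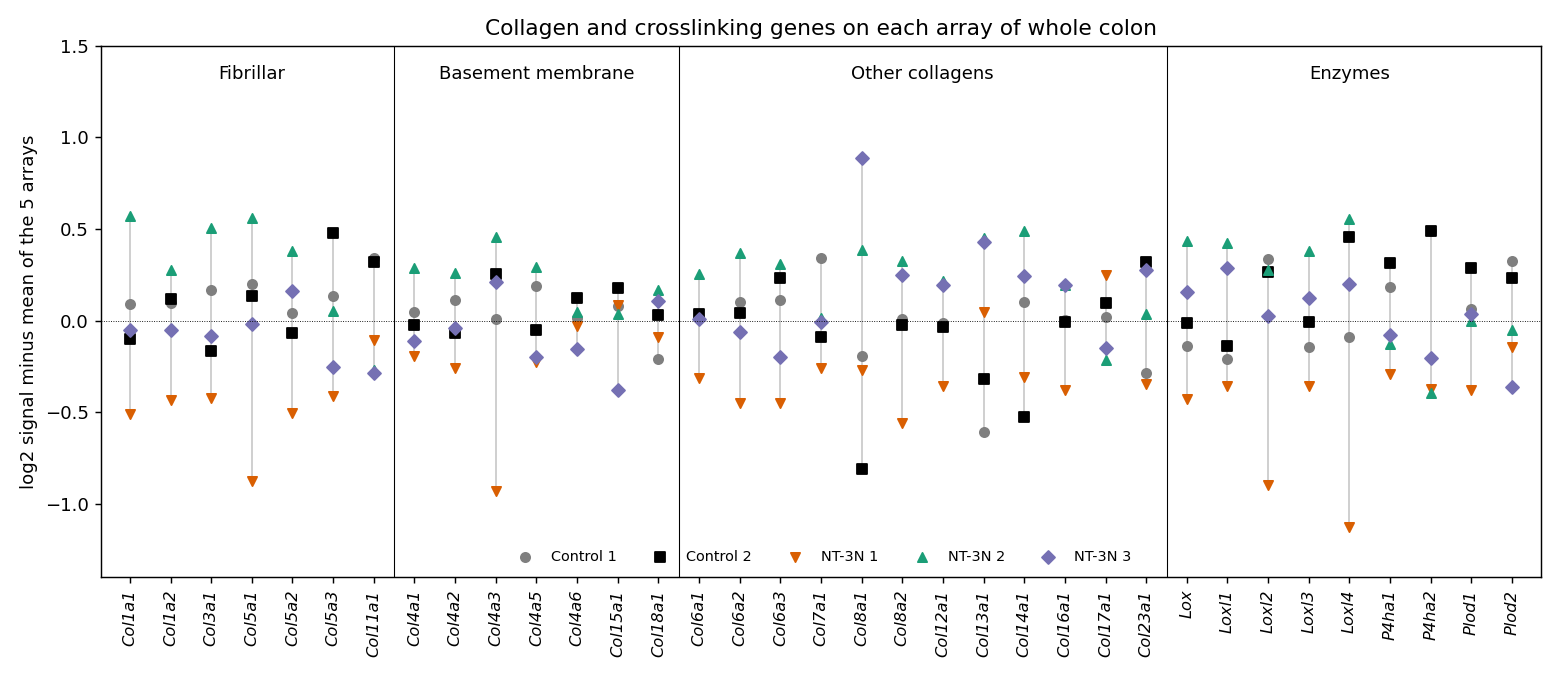
Log2 signal of each tested gene on each of the 5 arrays, minus the mean of that gene over the arrays, with the genes ordered by group along the horizontal axis and 1 symbol per array. NT-3N array 1 is the lowest array for 25 of the 35 genes and NT-3N array 2 the highest for 22.

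No basement membrane collagen had an unadjusted p under 0.05, and their arrays all overlapped. Of the 7 genes tested, 1 was higher and 6 were lower, with a median difference of -0.11. Col4a1 and Col4a2, which encode the chains of the most widespread type IV network and start head to head on the same chromosome, followed each other from array to array. Col4a1 read 11.65 and 11.58 in Control and 11.41, 11.89 and 11.49 in NT-3N, and Col4a2 read 11.44 and 11.26 in Control and 11.07, 11.59 and 11.29 in NT-3N. For both genes NT-3N array 1 was the lowest and NT-3N array 2 the highest. The difference was -0.02 for Col4a1 with an interval from -0.39 to 0.36, and -0.03 for Col4a2 with an interval from -0.42 to 0.36.

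Col4a3, a chain of more restricted networks, had the largest absolute difference of this group, at -0.22. Its log2 signal was 4.14 and 4.38 in Control and 3.20, 4.58 and 4.34 in NT-3N, and it was well above background on both Control arrays but on only 2 of the 3 NT-3N arrays. The interval of its difference, from -1.35 to 0.91, was the widest of the group. Col4a5 and Col4a6, also type IV chains, each differed by -0.11. Col15a1 and Col18a1, which encode collagens of the outer face of basement membranes, differed by -0.21 with an interval from -0.71 to 0.28 and by 0.15 with an interval from -0.15 to 0.46. A second probe of Col4a5 differed by 0.13, in the other direction, and a second, dimmer probe of Col15a1 by -0.68. Over all groups, 10 members had several tested probes, and for 5 of these the probes went in both directions.

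The other collagens were evenly placed, with 6 of the 12 genes higher and 6 lower, and a median difference of -0.01. Col13a1 and Col8a1 stood out among them. Col13a1, a transmembrane collagen found at cell adhesions, had a log2 signal of 6.72 and 7.01 in Control and of 7.38, 7.78 and 7.76 in NT-3N. It was higher on every NT-3N array, with a difference of 0.77, a standard error of 0.18 and a 95% interval from 0.33 to 1.21, a 1.71-fold higher level (limma adjusted p = 0.27). Its unadjusted p was under 0.05 in 16 of the 17 alternative settings, with a difference between 0.57 and 0.91. Its second probe was not well above background on any array.

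Col8a1, a short-chain collagen of vessel walls, had the largest absolute difference of all members. It read 11.33 and 10.71 in Control and 11.25, 11.91 and 12.41 in NT-3N. NT-3N array 1 lay below Control array 1, so the groups overlapped. The difference was 0.84 with an interval from -0.0020 to 1.68 (limma adjusted p = 0.52). Col8a1 was called at an adjusted p of 0.0092 by the local-pooled-error test named in the methods of the study, which looks at the variance of genes of like brightness rather than of the gene itself. Its partner chain Col8a2 differed by 0.01, with NT-3N array 1 below the other 4 arrays.

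The type VI genes, whose product forms beaded filaments around cells, were Col6a1 with a difference of -0.04, Col6a2 with -0.11 and Col6a3 with -0.28. Their intervals ran from -0.44 to 0.35, from -0.66 to 0.43 and from -0.80 to 0.24. Among the collagens that lie on the surface of fibrils, Col12a1 differed by 0.04, Col14a1 by 0.35 with an interval from -0.38 to 1.09, and Col16a1 by 0.01. Col7a1, the gene of anchoring fibrils, differed by -0.21 with an interval from -0.62 to 0.19. The transmembrane collagen genes Col17a1 and Col23a1 differed by -0.10 and -0.03, and a second probe of Col23a1 by -0.28. Col17a1, a collagen of the epithelial cell surface, was the member for which NT-3N array 1 was the highest array.

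Over all 35 genes, NT-3N arrays 1 and 2 were further apart than the groups. NT-3N array 1 was the lowest of the 5 arrays for 25 genes, which is 71.4% of those tested, whereas it was lowest for 25.6% of all features. It was lowest for 6 of the 7 fibrillar, 4 of the 7 basement membrane, 8 of the 12 other collagen and 7 of the 9 enzyme genes. NT-3N array 2 was the highest array for 22 genes, or 62.9%, against 15.7% of all features. The median deviation of the members from their mean over the arrays was -0.36 on NT-3N array 1 and 0.27 on NT-3N array 2, against -0.01 on NT-3N array 3, 0.06 on Control array 1 and 0.04 on Control array 2. The same median over all features lay between -0.01 and 0.02 on every array. The median SD within a group was 0.27 for the members and 0.18 for all features.

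**Figure D4:**
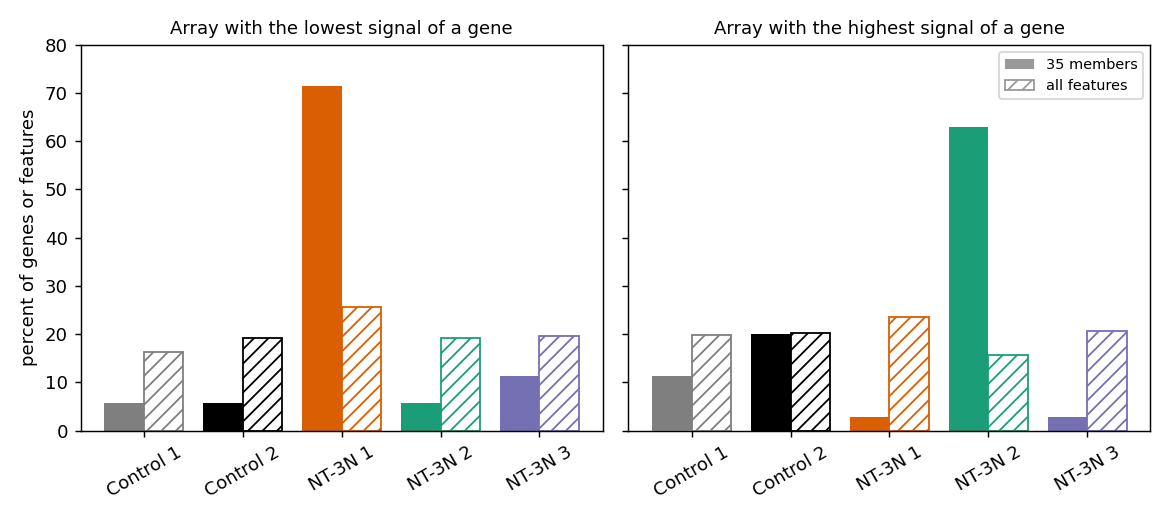
Percent of the 35 members (filled bars) and of all features (hatched bars) for which each array had the lowest signal, left, or the highest signal, right. NT-3N array 1 was lowest for 71.4% of members and 25.6% of features, and NT-3N array 2 highest for 62.9% of members and 15.7% of features.

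The directions of the collagen groups turned when NT-3N array 1 was left out. Their median differences were then 0.11 for the fibrillar, 0.07 for the basement membrane and 0.17 for the other collagens, and -0.15 for the enzymes. Without this array 4 members were higher and 4 lower at an unadjusted p under 0.05 in limma, and none was called. The share of all features at this threshold also rose, to 7.58% higher and 8.10% lower. The 4 that were higher were Col13a1, Col8a1, Loxl1 with a difference of 0.53, and Col16a1 with 0.19. The 4 that were lower were P4ha2 with a difference of -0.79, Col11a1 with -0.61, Plod2 with -0.49 and P4ha1 with -0.35. Col5a3 was no longer among them. Leaving out NT-3N array 2 moved the medians down instead, to -0.35, -0.17 and -0.07 for the 3 collagen groups and -0.43 for the enzymes.

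Markers of other cell types moved with part of this pattern. All 6 smooth muscle markers had a lower mean in NT-3N, with a median difference of -0.28 and a limma adjusted p from 0.48 to 0.60. For 5 of them the arrays of the groups did not overlap, against 14.8% of all features in the lower direction. Their summed linear signal was 445700 to 460200 in Control and 327000 to 416500 in NT-3N, with the lowest value on NT-3N array 1. At an unadjusted p under 0.05, Myh11, the smooth muscle myosin heavy chain, was lower by a difference of -0.22 and Tagln, an actin-binding protein of smooth muscle, by -0.25. Of all features, 4.67% were lower at this threshold. Of the 8 fibroblast markers, 5 were higher and 3 lower, and their summed signal was 19640 to 20180 in Control and 19650 to 25050 in NT-3N. Pdpn, which encodes podoplanin, was higher by 1.49 (limma adjusted p = 0.067), and its signal is part of that sum. The median difference of the 8 fibroblast markers was 0.05. The summed signal of the 6 epithelial markers was 422800 to 446500 in Control and 400500 to 452100 in NT-3N, and that of the 5 endothelial markers 1730 to 1822 and 1695 to 2056. For comparison, the summed signal of the 35 members was 83880 and 79330 in Control and 60380, 99560 and 80090 in NT-3N. The part of these cell types in the placing of the members was not tested.

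Among the other genes of collagen assembly, none in the 6 lists of partner genes passed an adjusted p under 0.05 in limma. Of all features, 46.4% had a higher mean in NT-3N. At an unadjusted p under 0.05, 4.95% of all features were higher and 4.67% lower, and the counts of each list stand beside these shares. Among the 22 tested genes of collagen folding and processing, 7 were higher and 15 lower, with a median difference of -0.09. Tgm2, which encodes a transglutaminase that links matrix proteins, was higher on every NT-3N array. It read 12.63 and 12.91 in Control and 13.33, 13.47 and 13.56 in NT-3N, a difference of 0.68 (limma adjusted p = 0.14). Mia3, which exports collagen from the endoplasmic reticulum, was lower at an unadjusted p under 0.05, with a difference of -0.21. Colgalt2, which adds galactose to hydroxylysine, was well above background on both Control arrays and not well above background on any NT-3N array. Of this list Adamts3, a procollagen-trimming protease, was too dim to be tested.

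Of the 17 collagen genes outside the list of members, 14 were tested, 4 were higher and 10 lower, and none had an unadjusted p under 0.05. Col6a6, Col10a1 and Col19a1 were too dim to be tested. Among the 15 laminin, nidogen and proteoglycan genes of the basement membrane, 5 were higher and 10 lower, where 46.4% of all features were higher. Hspg2, which encodes perlecan, was lower by a difference of -0.28 and Agrn, which encodes agrin, by -0.30, each at an unadjusted p under 0.05. Of the 14 genes of the interstitial matrix, 9 were higher and 5 lower. Dcn, the gene of the collagen-binding proteoglycan decorin, was higher by 0.32 at an unadjusted p under 0.05.

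**Figure D5:**
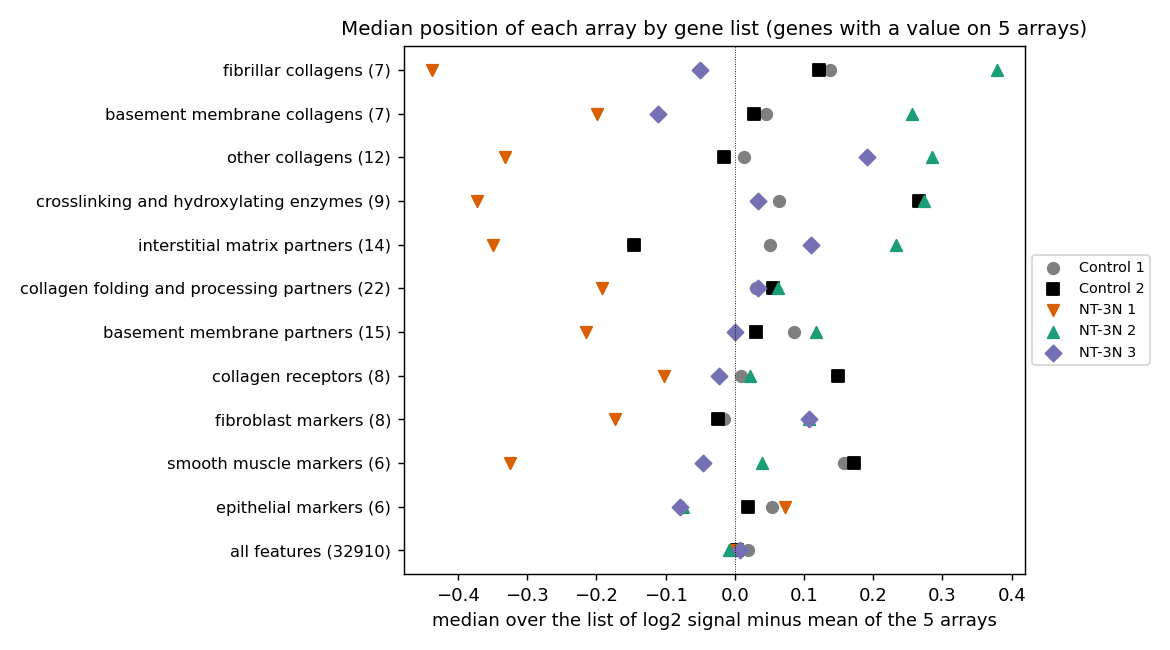
Median over each gene list of the log2 signal minus the mean of the 5 arrays, on the horizontal axis, with 1 symbol per array and the number of genes with a value on all 5 arrays in parentheses. NT-3N array 1 is the lowest array for all 4 groups of members, from -0.44 for the fibrillar to -0.20 for the basement membrane collagens. It is also lowest for the interstitial matrix partners at -0.35, the smooth muscle markers at -0.32 and the basement membrane partners at -0.22. The same holds for the folding and processing partners at -0.19, the fibroblast markers at -0.17 and the collagen receptors at -0.10. For the epithelial markers NT-3N array 1 lies at 0.07.

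Among the 8 collagen receptors, 2 were higher and 6 lower. Ddr2, a receptor tyrosine kinase for fibrillar collagen, was higher by 0.27, whereas the collagen-binding integrin chains Itga10 and Itga11 were lower, with differences of -0.46 and -0.60, all at an unadjusted p under 0.05. Of the 10 genes of the TGF-beta axis, which is known to drive collagen expression, 7 were higher and 3 lower. Tgfbr2, a TGF-beta receptor, was higher by 0.40, whereas the ligand gene Tgfb3 was lower with a difference of -0.43, each at an unadjusted p under 0.05. Their limma adjusted p was 0.40 and 0.50.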

How the data were processed

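RNA of whole colon was hybridised to 5 one-colour Agilent mouse arrays on 1 slide with 1 scan time. The authors extracted spots with Feature Extraction 11.0.1.1, and the deposited scanner files give a background-subtracted intensity per spot that was not scaled between arrays. The authors also deposited log2 values of 37380 probes, which matched quantile-normalized intensity and served as an alternative only.

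Here control and outlier spots were removed, log2 processed intensity was averaged per probe, and quantile normalization was applied. Testing required a probe well above background on 2 or more of the 5 arrays, with values for both Control and at least 2 NT-3N arrays. Accessions matched to RefSeq (GRCm38.p6) named 32994 of 56605 probes, and the brightest tested probe stood for a gene. The build in the array headers differs, so no probe coordinates are given. Groups were compared by limma 3.58.1 (R 4.3.3; lmFit, and eBayes with a trend), with two-sided p-values adjusted by Benjamini-Hochberg over the 32917 features. An exact permutation test of 5 arrays cannot go below p = 0.1, and this number of arrays limits the precision of all values. Scripts were tested on simulated data.

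All members are named. Values on each array are given for members called, at an unadjusted p under 0.05 or with the largest absolute difference of their group, for Col1a1, Col1a2, Col3a1, Col4a1, Col4a2, Lox and P4ha1, and for Plod1 and Tgm2, added after their values were seen. Of each partner list, genes at an unadjusted p under 0.05 are named, except 1 that is not reported here. Members and lists were chosen with earlier results of these data known, and the motifs after the values were seen. Alternatives covered scaling, background, filter, variance model, array weights, test, replicate block, probe rule and each array left out.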

Additional observations from a re-analysis of the deposited data

How the results depend on the processing

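Over 17 alternative settings, 16 of the 35 members kept the direction of their difference in every setting that measured them and 19 did not. A called member appeared in 2 settings, which called 200 (array quality weights) and 348 (local-pooled-error test) of all features, against 47. With array quality weights, which gave NT-3N array 1 a weight of 0.374 and NT-3N array 2 one of 2.19, the count called lower was 1 (P4ha2, limma adjusted p = 0.028). With the local-pooled-error test the count called higher was 1 (Col8a1). The count that was higher at an unadjusted p under 0.05 went from 1 to 2 with 75th percentile scaling, median scaling, normexp, the deposited values and the filter on all 5 arrays, where Col8a1 joined, and to 3 with array weights, where 7.84% of all features were higher at this threshold. With the other settings just named, 3.60% to 5.49% of all features were higher at this threshold. The count that was lower went from 5 to 3 with normexp, to 1 with the local-pooled-error test and to 3 with the replicate block. The share of all features that was lower also moved, from 4.67% to 3.80%, 1.89% and 4.10%. With 1 NT-3N array left out, the higher count reached 4 without NT-3N array 1, where 7.58% of all features were higher. The lower count reached 5 without NT-3N array 2, where 3.53% of all features were lower. Leaving out a Control array leaves 1 Control, so members were not counted there. The difference then lay between -0.69 and -0.34 for Col5a3 and between 0.63 and 0.91 for Col13a1. With array weights the median turned from -0.18 to 0.081 for the fibrillar, from -0.11 to 0.10 for the basement membrane and from -0.01 to 0.12 for the other collagens, and stayed negative for the enzymes at -0.21. The median of the other collagens was also above 0 with median scaling (0.0014) and the local-pooled-error test (0.11). With the mean of the probes the enzyme median was -0.13. The replicate numbers were shared by 2 pairs of samples, whose deviations correlated at 0.13 and 0.036, so they were not taken as pairs. With the block 0 features were called in limma, with 2488 at an unadjusted p under 0.05.

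Most differences that changed sign were near 0. With 75th percentile scaling Col3a1 was 0.014, and with median scaling Col3a1 was 0.036, Col4a1 0.017 and Col4a2 0.016. With normexp Col5a2 was -0.051 and Loxl3 -0.0045, and with the deposited values Col3a1 was 0.0036. With array weights the values were 0.0015 for Col1a2, 0.047 for Col23a1, 0.24 for Col3a1, 0.11 for Col4a1, 0.10 for Col4a2, 0.11 for Col4a3, 0.031 for Col4a5, 0.081 for Col5a1, 0.10 for Col6a1, 0.092 for Col6a2 and 0.093 for Loxl4. With the local-pooled-error test, which compares medians, they were -0.043 for Col1a1, 0.020 for Col23a1, 0.078 for Col4a3 and 0.016 for Loxl4. With the replicate block they were -0.047 for Col12a1, -0.086 for Col16a1, 0.043 for Col3a1, 0.032 for Col4a1, -0.049 for Col5a2 and -0.11 for Col8a2. With the mean of the probes they were -0.045 for Col16a1, -0.017 for Col1a1 and 0.0075 for Col4a5.

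With each array left out in turn, the ranges that crossed 0 were -0.059 to 0.23 for Col12a1, -0.087 to 0.19 for Col16a1, -0.28 to 0.26 for Col1a1, -0.35 to 0.0057 for Col1a2, -0.33 to 0.27 for Col23a1, -0.25 to 0.21 for Col3a1, -0.17 to 0.074 for Col4a1, -0.17 to 0.091 for Col4a2, -0.49 to 0.20 for Col4a3, -0.28 to 0.0084 for Col4a5, -0.62 to 0.11 for Col5a1, -0.16 to 0.28 for Col5a2, -0.18 to 0.10 for Col6a1, -0.32 to 0.085 for Col6a2, -0.42 to 0.0032 for Col7a1, -0.15 to 0.29 for Col8a2, -0.061 to 0.37 for Lox, -0.041 to 0.33 for Loxl3 and -0.64 to 0.19 for Loxl4. The cause was not tested. With fewer arrays the spread is also estimated from fewer values.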
